A study of Mus musculus with 4 samples.

Results

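The genes described here are 10 Wnt signalling and cortical hem genes of the embryonic mouse forebrain, listed by symbol and found in the count table by Ensembl identifier. They comprise the ligand Wnt8b, the secreted inhibitors Sfrp1 and Sfrp2, the receptor gene Fzd8, the signal transducer Ctnnb1, the nuclear factors Tcf7l1 and Tcf7l2, the feedback target Axin2, the hem marker Lmx1a and the choroid plexus marker Ttr. Of the 16449 genes in the table, 9 were members of this list. Fzd8 was not analysed here. Expression was high enough for 7 members to be tested, and Sfrp2 and Lmx1a are given by their counts alone.

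Wnt ligands are secreted lipid-modified proteins that bind Frizzled receptors and their co-receptors. In the canonical branch, this stops a cytoplasmic complex of Axin, Apc and kinases from marking β-catenin for destruction, and β-catenin then enters the nucleus, where it binds TCF/LEF proteins on target genes. The cortical hem lies at the medial edge of the pallium, secretes Wnt and BMP proteins, and is known as an organizer of the hippocampus. The choroid plexus epithelium, which makes cerebrospinal fluid, arises beside it.

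Dorsal and medial palliums were dissected at E11.5 and their poly(A)-enriched RNA was sequenced as Nanopore long reads, to compare embryos with and without Tut1, which encodes the enzyme that uridylates the 3′ end of U6 snRNA. The wild type (WT) is represented by 2 libraries, as is the group labelled Tut1 knockout. All 4 are listed by the study as homozygous for a Tut1 allele in which loxP sites flank 1 exon, so the WT embryos carried the floxed allele without Cre, and those labelled knockout carried Emx1-Cre, a knock-in that recombines in the dorsal and medial pallium lineage. The number of embryos per library and whether the replicates were separate litters are not stated, so p-values do not reach beyond these libraries. With 2 libraries per group, each gene's spread was drawn strongly toward a value shared over genes (prior degrees of freedom 37.5, residual 2). Standard errors, intervals and p-values therefore do not rest on a gene's own replicates alone.

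Total counts ranged from 305642 to 397150 per library, and with 1 count worth 2.66 to 3.47 CPM (counts-per-million, on scaled library sizes), many members rested on few reads. Tut1 itself had 6 and 11 counts in WT against 29 and 25 in the knockout-labelled libraries, a log2 fold change of 1.71 ± 0.40 that goes against the label (edgeR adjusted p = 0.0113). The knockout removes 1 exon from the Tut1 mRNA, and a gene count does not resolve a single exon, so this rise does not test the label. Every direction given here is between libraries as labelled. WT replicate 1 was the only library with Xist counts (64) and had 0 counts for 4 Y-linked genes (Eif2s3y, Kdm5d, Ddx3y and Uty), against sums of 41 to 78 in the other 3 libraries. Pallial markers were present, with Pax6 at 93 to 137 counts and Lhx2 at 106 to 348 counts, whereas Emx1, the locus that carries Cre, had 6 and 7 in WT and 1 and 2 otherwise. In bulk tissue, fewer cells of a type and less RNA per cell cannot be told apart.

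TCF/LEF proteins bind DNA around the letters CTTTG. The ligand Wnt8b had the largest ratio between WT replicates among the tested members, and Axin2 is a feedback target. Their promoters are shown to mark these letters. Each is the stretch of 250 bases before the RefSeq start site on GRCm38.p6, on the plus strand, with CTTTG or its reverse complement CAAAG in capitals. Wnt8b is taken from chr19:44493222-44493471, and Axin2 from chr11:108920099-108920348.

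Wnt8b: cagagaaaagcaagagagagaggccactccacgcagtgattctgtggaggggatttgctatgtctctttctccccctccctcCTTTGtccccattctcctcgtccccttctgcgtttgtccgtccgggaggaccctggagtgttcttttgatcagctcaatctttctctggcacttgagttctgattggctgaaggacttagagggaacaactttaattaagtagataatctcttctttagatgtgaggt
Axin2: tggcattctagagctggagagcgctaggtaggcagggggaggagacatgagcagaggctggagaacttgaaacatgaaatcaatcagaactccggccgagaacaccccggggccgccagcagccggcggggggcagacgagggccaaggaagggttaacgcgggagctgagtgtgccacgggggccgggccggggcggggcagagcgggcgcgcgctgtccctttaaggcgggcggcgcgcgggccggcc

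The Wnt8b stretch held the 5-letter core 1 time and the Axin2 stretch 0 times. Promoters were matched for 7 of the 10 members, in 9 windows because Ctnnb1 and Tcf7l2 have several starts, and the core was in 4 of the 9 windows, those of Tcf7l1, Tcf7l2 and Wnt8b. Among all 32851 promoter windows of this length, 48.6% held it. The longer form CTTTGAT or ATCAAAG, which contains the core, was in 0 of the 9 windows and in 3.21% of all windows.

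Among the 7 tested members, Ttr was higher in the knockout-labelled libraries and the other 6 did not pass the threshold (edgeR quasi-likelihood test, adjusted p below 0.05). The background was 121 of 5878 tested genes, or 2.06%, of which 82 genes (1.4% of those tested) were higher and 39 lower. With scaling by total counts alone, 105 were higher and 24 lower. The background count depended on single libraries and was 3 without knockout-labelled replicate 1, 35 without knockout-labelled replicate 2 and 75 without WT replicate 1. Wnt8b and Ttr were the 2 members with an unadjusted p below 0.05, which 14.2% of tested genes had. The knockout-labelled libraries did not overlap WT in CPM for 3 of the 7 members (Ttr and Axin2 above, Tcf7l1 below), a share of 42.9% that equalled the 42.9% of all tested genes. The median log2 fold change was -0.16 over the 7 members and -0.01 over all tested genes.

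**Figure D1:**
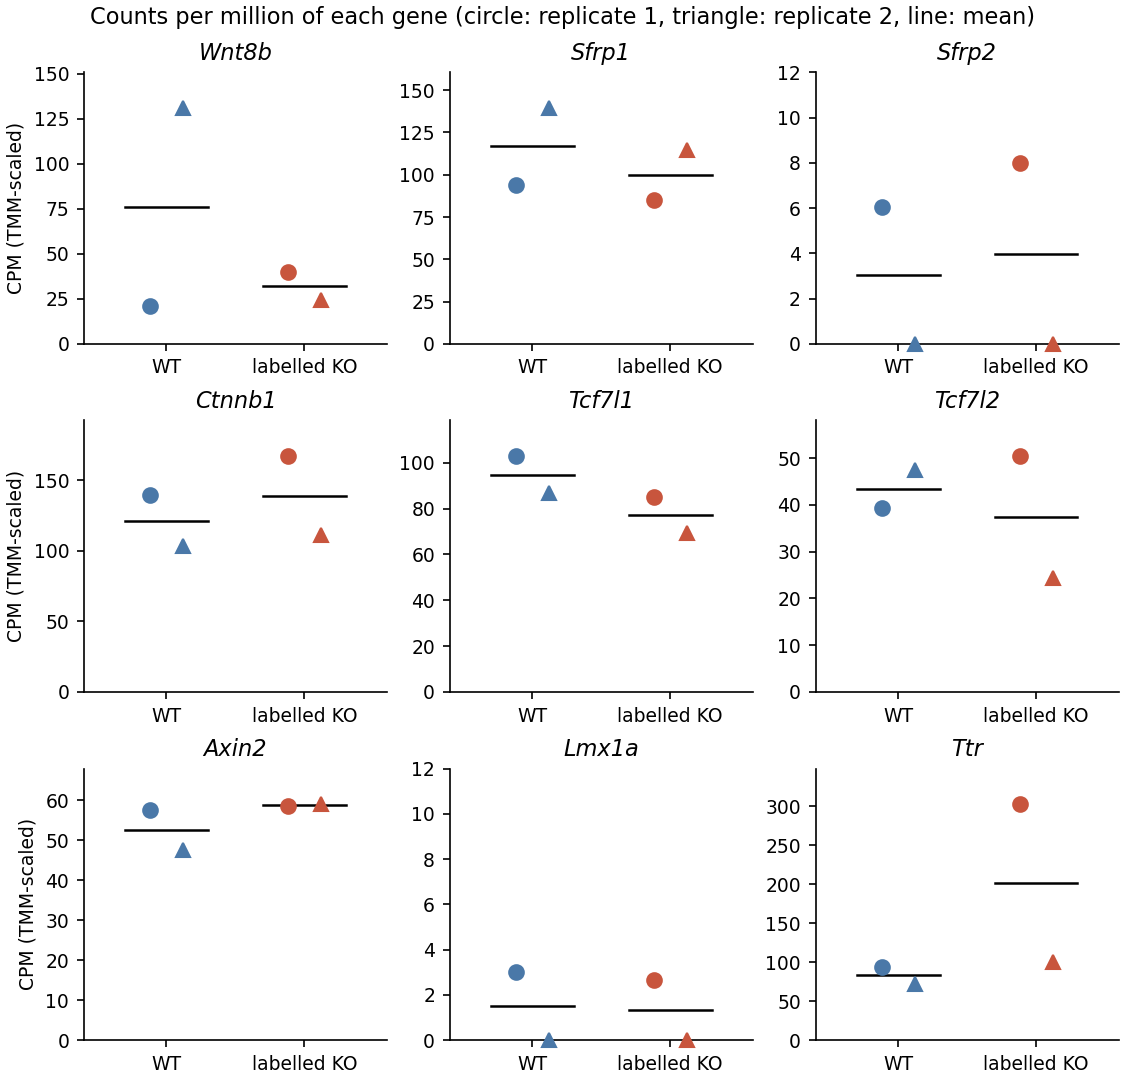
Normalised level of the 9 members in the table, in CPM (vertical axis, starting at 0 and scaled per gene), with 1 point per library and a line at the mean of 2 libraries. WT replicate 2 stands apart for Wnt8b at 131 CPM and knockout-labelled replicate 1 for Ttr at 303 CPM, while the groups overlap for Sfrp1, Ctnnb1 and Tcf7l2.

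Wnt8b (ENSMUSG00000036961; GRCm38 chromosome 19, 44493472 to 44514273) encodes a canonical Wnt ligand made by the hem and medial pallium. Its counts were 7 and 47 in WT against 15 and 7 in the knockout-labelled libraries, or 21.2 and 131 CPM against 39.9 and 24.3 CPM. WT replicate 2 was high, and WT replicate 1 lay below both libraries labelled knockout, so the groups overlapped. The mean level of WT was 76.2 ± 77.8 CPM, against 32.1 ± 11.0 CPM in the knockout-labelled libraries (SD, n = 2 each). The log2 fold change was -1.23 ± 0.48 (SE) with a 95% confidence interval from -2.20 to -0.26, and it did not pass the threshold (edgeR adjusted p = 0.199). Without WT replicate 2 the estimate turned to 0.62 (edgeR adjusted p = 0.793), and without WT replicate 1 it was -1.99 and past the threshold (edgeR adjusted p = 0.000186). Without knockout-labelled replicate 1 or 2 it was -1.66 or -0.96 (edgeR adjusted p = 0.578 and 0.680). The ratio of 6.19 between the WT replicates was larger than that of 99.8% of the 5878 tested genes, whose median ratio was 1.24.

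Other markers of the hem, taken as a sum, were also most abundant in WT replicate 2. The list held 16 genes, of which 15 had counts, and their summed level was 127 and 352 CPM in WT against 229 and 215 CPM in the knockout-labelled libraries. Without Wnt8b and Lmx1a the sums were 103 and 221 CPM in WT against 186 and 191 CPM, with WT replicate 1 the lowest library. Of these other 13 genes, 8 had their highest CPM in WT replicate 2 and 0 in WT replicate 1. Of all tested genes, 24.4% were highest in WT replicate 2 and 26.1% in WT replicate 1. However, 12 of the 13 had too few counts for the test and some of these orders rest on 1 read. Rspo1 and Rspo3, which encode secreted enhancers of Wnt signalling, had 1 and 8 against 5 and 5 counts and 11 and 19 against 21 and 16 counts. Rspo3 was the only one of the 13 that could be tested, and it did not pass the threshold (log2 fold change 0.35 ± 0.38, edgeR adjusted p = 0.764). Dkk3, a member of the Dickkopf family, had 6 and 15 against 10 and 7 counts. Rspo2 and Wnt5a of the same list differed little between the WT replicates. Rspo2 had 5 and 6 against 4 and 4 counts, and Wnt5a had 5 and 6 against 5 and 7. The part of hem content in the Wnt8b values was not tested.

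The defining hem genes were near the limit of detection. Lmx1a (ENSMUSG00000026686; chromosome 1, 167689237 to 167848741), a LIM homeodomain factor of the hem and roof plate, had 1 and 0 counts in WT against 1 and 0 in the knockout-labelled libraries. Wnt3a, the hem ligand whose loss prevents hippocampal growth, had 0 and 2 against 0 and 0 counts, and Wnt2b had 0 and 2 against 1 and 1. The floor of 3 counts corresponds to 7.97 to 10.4 CPM, so no difference in these 3 genes was detectable at this depth. Among the BMP genes of the list, Bmp4 had 2 or 3 counts in every library, Bmp7 had 2 or 3, and Bmp5 had 1 count over all 4 libraries. Bmp6 had 0 and 7 counts in WT against 12 and 6 in the knockout-labelled libraries, too few for the test. Its library at 0 was again WT replicate 1.

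**Figure D2:**
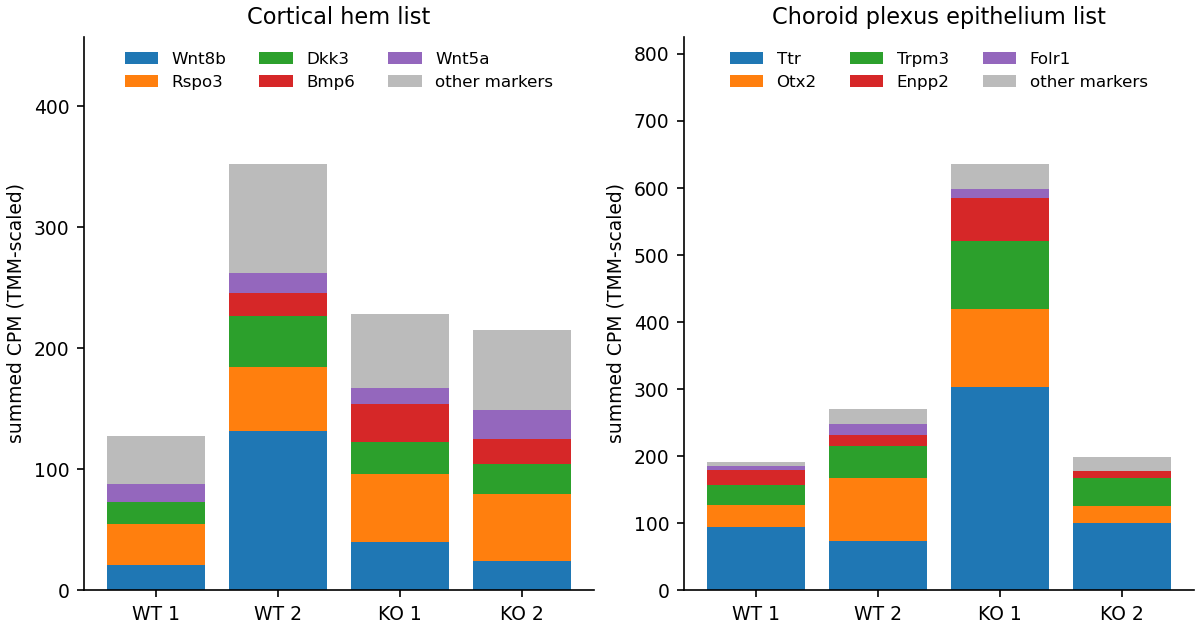
Summed CPM (vertical axis) of the cortical hem list (left) and the choroid plexus epithelium list (right) in each of the 4 libraries, stacked by gene, where KO is the group labelled knockout. The hem sum is highest in WT 2 at 352 CPM and lowest in WT 1 at 127 CPM, and the choroid plexus sum is highest in KO 1 at 635 CPM.

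Sfrp1 (ENSMUSG00000031548; chromosome 8, 23411502 to 23449632) encodes a secreted Frizzled-related protein that binds Wnt ligands, and it is abundant in cortical progenitors. It had 31 and 50 counts in WT against 32 and 33 in the knockout-labelled libraries, or 93.9 and 140 CPM against 85.0 and 115 CPM. The groups overlapped, with WT replicate 2 again the highest. Its log2 fold change was -0.25 ± 0.29 with a 95% confidence interval from -0.83 to 0.32 (edgeR adjusted p = 0.779), and the estimate was 0.054 without WT replicate 2. Sfrp2 (ENSMUSG00000027996; chromosome 3, 83766321 to 83774316), its relative and a marker of the antihem at the lateral edge of the pallium, had 2 and 0 counts in WT against 3 and 0 in the knockout-labelled libraries. All 4 values lay at or under the floor of 3 counts, and Gm26771 overlaps the gene on the opposite strand.

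Ctnnb1 (ENSMUSG00000006932; chromosome 9, 120929216 to 120960507) encodes β-catenin, which serves both Wnt signalling and cell adhesion. Its counts were 46 and 37 in WT against 63 and 32 in the knockout-labelled libraries. The normalised levels were 139 and 103 CPM against 167 and 111 CPM, and the groups overlapped. The log2 fold change of 0.23 ± 0.27, with an interval from -0.32 to 0.77, did not pass the threshold (edgeR adjusted p = 0.794), and it turned to -0.12 without knockout-labelled replicate 1. Ulk4 and 4930593C16Rik overlap it on the opposite strand, and whether strand was used in the counting is not stated.

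Axin2 (ENSMUSG00000000142; chromosome 11, 108920349 to 108950783), a scaffold of the destruction complex that is induced by β-catenin and used as a readout of canonical signalling, had nearly even counts. They were 19 and 17 in WT against 22 and 17 in the knockout-labelled libraries, with levels of 57.6 and 47.5 CPM against 58.5 and 59.0 CPM. The WT pair lay below the knockout-labelled pair, although the nearest 2 libraries differed by less than the CPM of 1 count. The log2 fold change was 0.16 ± 0.36 with a 95% confidence interval from -0.57 to 0.90 (edgeR adjusted p = 0.901). Gm11670 overlaps Axin2 on the opposite strand.

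Tcf7l1 (ENSMUSG00000055799; chromosome 6, 72626378 to 72789254), which encodes a TCF protein that mostly represses targets, had 34 and 31 counts in WT against 32 and 20 in the knockout-labelled libraries. At 103 and 86.6 CPM against 85.0 and 69.5 CPM, the knockout-labelled libraries lay just below WT. The log2 fold change of -0.28 ± 0.30, with an interval from -0.89 to 0.33, did not pass the threshold (edgeR adjusted p = 0.766). Gm15401, Gm15402 and Gm38320 overlap the gene on the opposite strand. Tcf7l2 (ENSMUSG00000024985; chromosome 19, 55741820 to 55933654), which acts as an activator or a repressor, had 13 and 17 against 19 and 7 counts. Knockout-labelled replicates 1 and 2 were its highest and lowest libraries, at 50.5 and 24.3 CPM, and the fold change did not pass the threshold (-0.16 ± 0.42 on the log2 scale, interval from -1.01 to 0.69, edgeR adjusted p = 0.917). It turned to 0.21 without knockout-labelled replicate 2. The other 2 genes of the family, Tcf7 and Lef1, were measured as well. Tcf7 had 21 and 34 against 29 and 26 counts, and did not pass the threshold (0.06 ± 0.31 on the log2 scale, edgeR adjusted p = 0.963). Lef1 had 12 and 15 against 14 and 17 counts, with 0.26 ± 0.41 (edgeR adjusted p = 0.853).

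Other genes of the pathway were then read from a list of 103 ligands, agonists, receptors, inhibitors, cytoplasmic and nuclear components and feedback targets, which includes 8 of the members. Of these, 78 had counts and 42 could be tested, and 0 passed the threshold in edgeR, DESeq2 or limma-voom. At an unadjusted p below 0.05 there were 4 of 42 in edgeR, 3 in limma-voom and 0 in DESeq2. Over all 5878 tested genes there were 834 (14.2%) in edgeR, 798 in limma-voom and 218 in DESeq2. Fold changes were upward for 21 genes and downward for 21, with a median of 0.00 on the log2 scale against -0.01 over all tested genes. Coverage was uneven between roles. Most cytoplasmic (13 of 16) and nuclear genes (15 of 18) were tested, but only 3 of 21 ligand and secretion genes, 1 of 4 agonists, 2 of 18 receptors and 1 of 13 secreted inhibitors.

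Of the 11 ligand and secretion genes with counts, Wnt8b included, 6 had their highest CPM in WT replicate 2, 3 in knockout-labelled replicate 1 (Wnt3, Wnt7a and Porcn), 1 in knockout-labelled replicate 2 (Wnt5a) and 1 in WT replicate 1 (Wnt9a). Among all tested genes, 24.4% were highest in WT replicate 2. Wnt7b, a ligand of cortical progenitors and neurons, had 21 and 44 counts in WT against 31 and 21 in the knockout-labelled libraries, and Wls, which carries Wnt proteins to the cell surface, had 8 and 21 against 16 and 8. Neither passed the threshold, at log2 fold changes of -0.27 ± 0.32 and -0.22 ± 0.44 (edgeR adjusted p = 0.795 and 0.891). Summed over the 11 genes, the level was 139 and 371 CPM in WT against 223 and 167 CPM in the knockout-labelled libraries, and Wnt8b made up 131 of the 371 CPM in WT replicate 2. The 2 tested receptor genes had overlapping groups: Ryk had 28 and 41 against 38 and 26 counts, and Fzd3 had 28 and 60 against 47 and 36. Their log2 fold changes were -0.06 ± 0.29 and -0.03 ± 0.28 (edgeR adjusted p = 0.958 and 0.982).

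The 3 genes other than Wnt8b at an unadjusted p below 0.05 had upward fold changes. Apc, a core scaffold of the destruction complex, had 47 and 52 counts in WT against 99 and 53 in the knockout-labelled libraries, with an estimate of 0.65 ± 0.24 on the log2 scale (edgeR adjusted p = 0.162). Apcdd1, a membrane inhibitor of Wnt signalling that is itself a target, had 60 and 98 against 112 and 103 counts (0.51 ± 0.21, edgeR adjusted p = 0.231). Ccnd1, which encodes cyclin D1, had 37 and 61 against 79 and 62 counts (0.58 ± 0.24, edgeR adjusted p = 0.241). In these 3 genes the WT pair lay below the knockout-labelled pair in CPM. Gm10548 overlaps Apc on the opposite strand, and LTO1 overlaps Ccnd1 likewise. The feedback targets had no common direction, since the log2 fold changes of the 7 tested genes ran from -0.72 for Mycn to 0.58 for Ccnd1, with 3 upward. The next genes of the whole list by p were both downward: Tnfrsf19, a receptor gene of the TNF family, had 32 and 28 against 24 and 16 counts (-0.54 ± 0.32, edgeR adjusted p = 0.500), and Mycn, a MYC family factor, had 15 and 14 against 11 and 6 (edgeR adjusted p = 0.527). In both the knockout-labelled pair lay below WT in CPM, and Gm41168 overlaps Tnfrsf19 on the opposite strand. After Apc, the cytoplasmic gene with the smallest p was Csnk1a1, a kinase of the destruction complex (0.29 ± 0.19, edgeR adjusted p = 0.541). The nuclear genes with the smallest p were the chromatin remodeler Smarca4 (0.29 ± 0.19) and the corepressor Tle1 (0.46 ± 0.34), with edgeR adjusted p of 0.541 and 0.597.

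**Figure D3:**
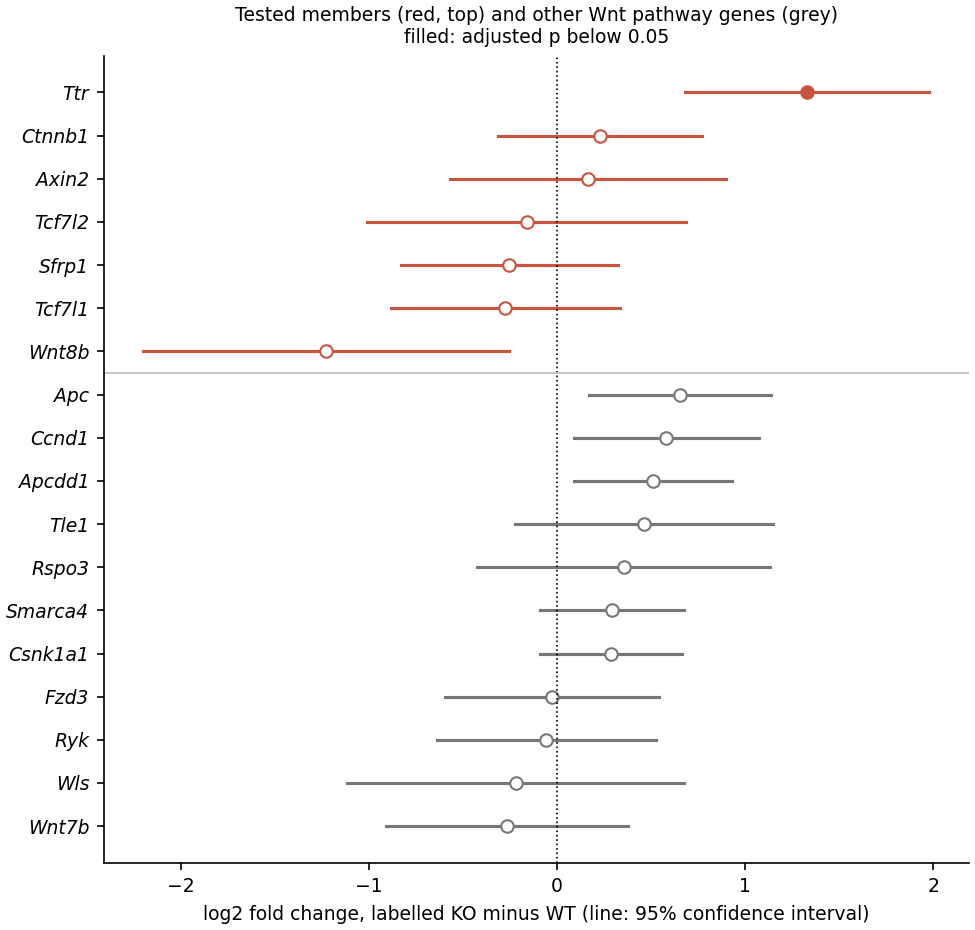
Log2 fold change of libraries labelled knockout minus WT (horizontal axis) with its 95% confidence interval for the 7 tested members (red, upper rows) and the other Wnt pathway genes named by rule (grey, lower rows). Ttr at 1.33 is the filled point, with an adjusted p below 0.05, and the interval of Wnt8b runs from -2.20 to -0.26 although its adjusted p was 0.199.

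Ttr (ENSMUSG00000061808; chromosome 18, 20665280 to 20674321) encodes transthyretin, a carrier of thyroid hormone and retinol-binding protein and a major secreted product of the choroid plexus. It had 31 and 26 counts in WT against 114 and 29 in the knockout-labelled libraries, or 93.9 and 72.6 CPM against 303 and 101 CPM. Both libraries labelled knockout lay above WT, but replicate 2 only just, and replicate 1 stood far from the other 3 libraries. The mean of WT was 83.3 ± 15.05 CPM, against 202 ± 143 CPM in the knockout-labelled libraries (SD, n = 2 each). Ttr rose by 1.33 ± 0.32 on the log2 scale, or 2.51-fold, with a 95% confidence interval from 0.68 to 1.98 (edgeR adjusted p = 0.0152). Without knockout-labelled replicate 1 the log2 fold change was 0.28 and the call was lost (edgeR adjusted p = 0.864), and without WT replicate 2 it was 1.14 (edgeR adjusted p = 0.0518). DESeq2 gave 1.28 with an adjusted p of 1.00. The ratio of 3.01 between the replicates labelled knockout was larger than that of 98.5% of tested genes.

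The rest of the choroid plexus list was also highest in knockout-labelled replicate 1. Of its 16 genes, 12 had counts, and without Ttr their summed level was 96.9 and 198 CPM in WT against 332 and 97.2 CPM in the knockout-labelled libraries. Knockout-labelled replicate 1 stood 3.42 times above replicate 2, which lay within the WT range. Between the WT libraries the order differed from that of Ttr, since the list without Ttr was 2.05 times higher in replicate 2 than in replicate 1, while Ttr had 72.6 CPM in replicate 2 and 93.9 CPM in replicate 1. Of these 11 genes, 6 were highest in knockout-labelled replicate 1, as were 24.8% of all tested genes. Too few counts for the test were found for 9 of the 11. Otx2, a homeobox gene needed for choroid plexus formation, had 11 and 34 counts in WT against 44 and 7 in the knockout-labelled libraries. Trpm3, a channel gene, had 10 and 17 against 38 and 12 counts, and Enpp2, which encodes autotaxin, had 7 and 6 against 24 and 3. Otx2 and Trpm3 were the 2 tested genes besides Ttr, with log2 fold changes of 0.21 ± 0.42 and 0.91 ± 0.40 (edgeR adjusted p = 0.892 and 0.261). Other epithelial markers were sparse: Clic6 had 1 and 0 against 4 and 0 counts, Folr1 had 2 and 6 against 5 and 0, and Kcne2 and Aqp1 summed to 0 and 1 in WT against 0 and 0 in the knockout-labelled libraries. The part of choroid plexus content in the rise of Ttr was not tested.

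**Figure D4:**
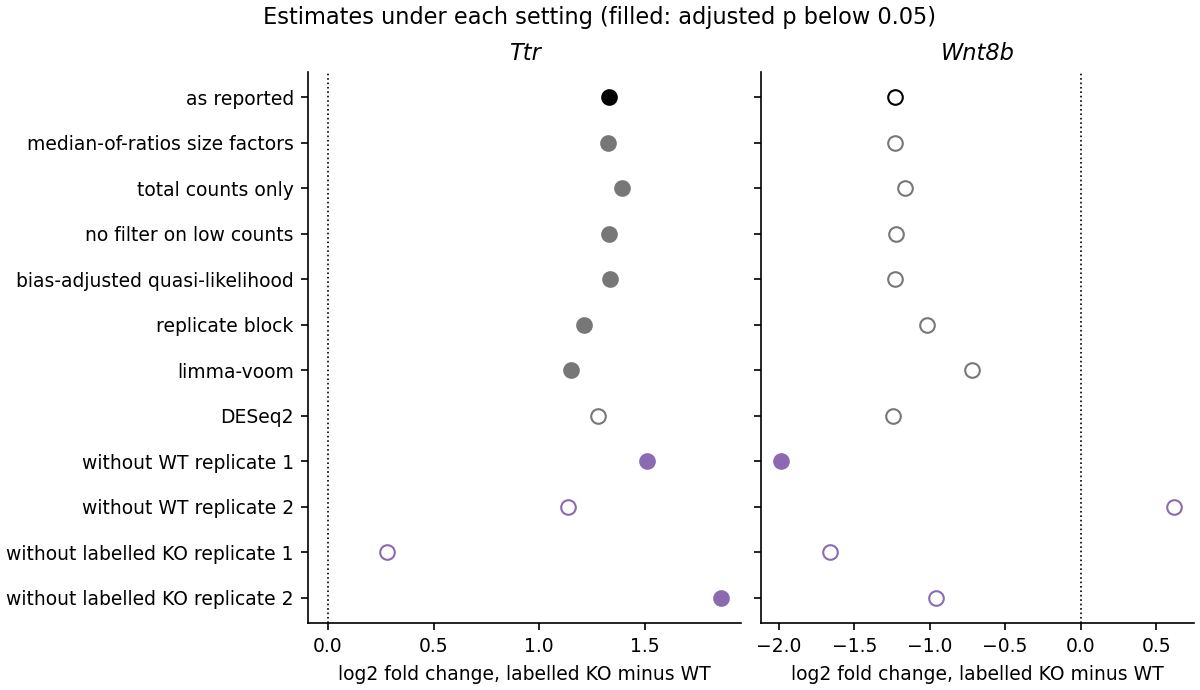
Log2 fold change of libraries labelled knockout minus WT (horizontal axis) of Ttr (left) and Wnt8b (right) under the reported fit and 11 other settings (rows), filled where the adjusted p was below 0.05. The estimate of Ttr falls to 0.28 without knockout-labelled replicate 1, and that of Wnt8b crosses 0 to reach 0.62 without WT replicate 2.

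Markers of neighbouring tissue differed between the libraries too. The summed level of the meningeal and mesenchymal list was 112 and 277 CPM in WT against 476 and 320 CPM in the knockout-labelled libraries, with counts for 7 of 8 genes and Col1a2 called higher (2.12 ± 0.47, edgeR adjusted p = 0.00742). The ventral telencephalic list, with counts for 7 of 11 genes, summed to 15.1 and 75.4 CPM in WT against 191 and 97.2 CPM in the knockout-labelled libraries, and Dlx1 was called higher (2.59 ± 0.55, edgeR adjusted p = 0.00494). In both lists knockout-labelled replicate 1 was the highest library and WT replicate 1 the lowest. Diencephalic markers, with counts for 4 of 10 genes, were at 93.9 and 142 CPM in WT against 146 and 93.8 CPM in the knockout-labelled libraries. The neuron list was at 409 and 439 CPM in WT against 1010 and 927 CPM in the knockout-labelled libraries, with Dcx and Mapt called higher. Markers of primitive red cells, with counts for 6 of 6 genes, summed to 1324 and 1740 CPM in WT against 2137 and 1434 CPM, and Hbb-bh1, an embryonic globin gene, was called lower, at 16 and 47 against 4 and 13 counts (-1.80 ± 0.46, edgeR adjusted p = 0.0279). Another embryonic globin gene of that list, Hba-x, had 15 and 24 against 43 and 36 counts (1.07 ± 0.31, edgeR adjusted p = 0.0563), so the list had no common direction. Endothelial markers summed to 167 and 187 CPM in WT against 319 and 292 CPM, with 0 of the 2 tested genes called. Of 8 tested pallial progenitor genes, 1 was called, and fold changes were upward for 2 and downward for 6. Lhx2, a selector factor that restrains hem fate, was called lower, from 1054 and 760 CPM in WT to 282 and 368 CPM, and Emx2, which also patterns the medial pallium, had 145 and 173 against 61.1 and 108 CPM (-0.96 ± 0.28, edgeR adjusted p = 0.0639). The other 6 tested genes did not pass the threshold, with log2 fold changes of -0.60 ± 0.42 for Sox2, -0.14 ± 0.19 for Pax6, -0.14 ± 0.41 for Otx1, -0.04 ± 0.19 for Nes, 0.06 ± 0.23 for Vim and 0.66 ± 0.50 for Fabp7 (edgeR adjusted p from 0.571 to 0.958). The hem sums of the knockout-labelled libraries lay between those of the 2 WT libraries, whereas both were below WT for Lhx2. The defining hem genes were near the limit of detection, and a relation between Lhx2 and hem content was not tested. Antisense genes overlap Lhx2, Emx2 (Emx2os), Dlx1 (Dlx1as) and Mapt. The part of these tissues in the values of Wnt8b, Ttr and the other members was not tested.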

How the data were processed

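The authors deposited raw read counts per Ensembl gene for 4 columns, matched to the samples by the names in the labels. The study's methods name minimap2, run against Ensembl mouse transcripts, and FLAIR. The summing of isoforms into genes, the treatment of multi-mapping reads and the use of strand are not stated. The submitters' processing notes give the build as GRCm38. Symbols and positions came from GENCODE M21 (16436 of 16449 identifiers matched), promoters from RefSeq.

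Counts were tested with edgeR 4.0.16 in R 4.3.3: filterByExpr (minimum count 10, minimum total 15), TMM scaling, glmQLFit and glmQLFTest in their default form, two-sided, 2 against 2 libraries, no covariate, Benjamini-Hochberg over 5878 tested genes. CPM uses TMM-scaled library sizes. Standard errors were derived from the F statistic (absolute log2 fold change over root F). Alternatives were DESeq2 1.42.0, limma 3.58.1 (voom), other scaling, no filter, a replicate block and leaving out each library. The procedure was tested on simulated counts.

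The members and lists were chosen with earlier results of these data known. Named were all members, from the Wnt, hem and choroid plexus lists each gene past the threshold, up to 2 further genes per Wnt role and from the hem list by smallest p, called genes of other marker lists or defining markers near 0 (Emx1), and Lhx2, Emx2 and Pax6 as pallial identity genes. Chosen after seeing the values were Tcf7, Lef1, Mycn, Tnfrsf19, Hba-x, Sox2, Otx1, Nes, Vim, Fabp7, untested ligands, the Cajal-Retzius markers, the sparse hem markers and the choroid plexus markers other than Ttr. Floors of 3 counts cover counting error only. A result on 1 further gene is not reported here.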

Additional observations from a re-analysis of the deposited data

How the results depend on the processing

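The call of Ttr was kept under median-of-ratios scaling, total counts, no filter, the bias-adjusted form, limma-voom and the replicate block, and 0 members were called in DESeq2, where the hem and choroid plexus list also had 0 calls. Leaving out 1 library gave 0 to 2 called members, 0 to 1 calls in the Wnt pathway list, 0 to 2 in the hem and choroid plexus list and 3 to 108 over all genes, against 121 as reported. DESeq2 called 8 genes. The replicate block called 76 genes, of which 74 were among the 121, and changed no call of a member. Deviations of replicate 1 in the 2 groups were nearly uncorrelated over genes (-0.06), which cannot settle whether the samples were paired. Among the members, direction reversed in 4 genes, each when 1 library was left out. Log2 fold changes over the 4 omissions ran from -0.51 to 0.054 for Sfrp1 and from -1.99 to 0.62 for Wnt8b (reversed without WT replicate 2), from -0.12 to 0.47 for Ctnnb1 (reversed without knockout-labelled replicate 1) and from -0.83 to 0.21 for Tcf7l2 (reversed without knockout-labelled replicate 2). Each lone library was taken to have the spread of the other group. Genes with few counts, Lmx1a and Sfrp2 among the members, could not be compared at this depth.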

Other observations

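Markers of Cajal-Retzius cells, early cortical neurons of which many are born in the hem, were sparse. Reln had 0 and 0 counts in WT against 4 and 3 in the knockout-labelled libraries, Trp73 had 2 and 1 against 6 and 2, Lhx1 had 1 and 1 against 4 and 2, Lhx5 had 0 and 0 against 2 and 1, and Nhlh2 had 6 and 1 against 4 and 1. The list summed to 69.7 and 89.4 CPM in WT against 117 and 66.0 CPM, of which Ebf2 alone gave 42.4 and 81.0 CPM against 61.1 and 34.7 CPM. Ebf2 was the only one tested, at 14 and 29 against 23 and 10 counts and an estimated log2 change of -0.33 ± 0.39 (edgeR adjusted p = 0.789).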
